A study of Homo sapiens with 4 samples.

Results

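The genes described here encode the initiation and elongation factors of cytosolic translation. Members were the rows of the deposited count tables whose name starts with EIF and a digit from 1 to 6, with EEF1 or with EEF2. Names of eIF2 kinases, eIF4E-binding proteins, EEF2K, EIF2C, antisense genes and numbered pseudogenes were left out. Of 69 names caught by the prefixes, 56 were members, out of 25680 rows in each table. EIF1AY lies on the Y chromosome. It is counted among the members, and no level of it is given.

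The RNA-seq libraries were made from the human leukaemia line THP-1, which is of monocytic origin, after transduction with a lentivirus that carried a scrambled short hairpin RNA (Scrambled, n = 2 libraries) or a hairpin against PIWIL4 (shPIWIL4, n = 2 libraries). Cells of both groups were sorted 48 hours after transduction. The labels name a single PIWIL4 hairpin, and effects of lower PIWIL4 and other effects of that hairpin cannot be told apart. The titles number the libraries as exp. rep1 and exp. rep2 within each group. They do not say whether these were separate cultures or whether a number marks an experiment shared by the groups, so p-values measure the spread between these libraries, which may be technical. The labelled purpose is to find genes that differ in expression when PIWIL4, an Argonaute-family protein of the PIWI branch, is knocked down in acute myeloid leukaemia cells.

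A messenger RNA is translated after its cap is bound by eIF4E, which together with the scaffold eIF4G and the RNA helicase eIF4A forms eIF4F. The small ribosomal subunit, loaded with eIF3, eIF1, eIF1A, eIF5 and the eIF2 complex that carries the initiator tRNA, then scans to the start codon, and eIF5B joins the large subunit. During elongation, eEF1A delivers aminoacyl-tRNAs, the eEF1B complex recharges eEF1A with GTP, and eEF2 moves the ribosome along. Many elongation factor mRNAs, and some of initiation factors, belong to the 5′ TOP class. These mRNAs start with a C and a run of pyrimidines at the cap, a feature they share with ribosomal protein mRNAs, and their translation depends on the kinase complex mTORC1.

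Because that feature is a matter of sequence, 30 bases around the annotated transcript start are shown for members that fell, rose or were not called in the comparison below. The sequences are from RefSeq (GRCh38.p14 coordinates) and run 5′ to 3′ on the strand of the gene, with 15 bases before the start and 15 from the start on. Capitals mark a C followed by at least 4 bases that are each C or T, matched from a position within 5 bases of the start on either side. Such a run could continue a longer stretch from further upstream, or end before the start. Of the 11 members that fell and had a start sequence, EEF1G was the only one with no run in this window.
EEF1A1, fell (chr6:73521018-73521047, minus strand): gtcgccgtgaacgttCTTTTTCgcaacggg
EEF2, fell (chr19:3985449-3985478, minus strand): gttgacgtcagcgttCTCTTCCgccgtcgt
EIF4B, fell (chr12:53006441-53006470, plus strand): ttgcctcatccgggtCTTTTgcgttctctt
EIF4A2, fell (chr3:186783562-186783591, plus strand): gttgggcgccgctgtCTTTTCagtcgggcg
EIF3F, fell (chr11:7987322-7987351, plus strand): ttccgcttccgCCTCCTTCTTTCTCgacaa
EEF1G, fell (chr11:62573877-62573906, minus strand): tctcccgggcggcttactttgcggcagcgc
EIF2S3, not called (chrX:24054941-24054970, plus strand): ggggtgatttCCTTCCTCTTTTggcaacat
EIF3K, rose (chr19:38619173-38619202, plus strand): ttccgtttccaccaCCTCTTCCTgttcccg
EIF4A1, rose (chr17:7572810-7572839, plus strand): aggcgggcactccgccctagtttctaagga
EIF5B, rose (chr2:99337374-99337403, plus strand): gcgcactgagaactcacaccatatgtgtcc
EIF3B, rose (chr7:2354812-2354841, plus strand): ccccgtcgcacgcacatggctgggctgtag
In EEF1A1, EEF2, EIF4B and EIF4A2 the run began on the annotated start base itself. EIF3K, which rose, also held a run, and the other 3 members shown that rose held none.

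Total counts ranged from 31458079 to 53657246 per library, and the smallest library was in the Scrambled group. PIWIL4 was at 38.5 and 37.2 CPM (counts relative to the library's size, scaled by TMM factors) in Scrambled libraries 1 and 2 and at 17.8 and 17.4 CPM in shPIWIL4 libraries 1 and 2. All 8 myeloid markers checked, among them CD33, SPI1 and PTPRC, were above 1 CPM in every library. Their summed level was 708 to 738 CPM in Scrambled and 2209 to 2213 CPM in shPIWIL4. The lysozyme gene LYZ alone went from 144 and 152 CPM to 1803 and 1818 CPM, more than the whole difference. PTPRC (292 and 296 against 148 and 158 CPM), CSF1R (46.7 and 48.4 against 33.4 and 34.1 CPM) and MPO (27.8 and 30.3 against 16.8 and 14.6 CPM) were lower in shPIWIL4, and the other 4 overlapped between groups. Of 9 markers of other cell types, CD3E and KRT19 were at 0 in all libraries. The highest was PECAM1, which monocytes also express, at 106 CPM, and the sum of the 9 ranged from 77.5 to 85.8 CPM in Scrambled and from 96.1 to 108 CPM in shPIWIL4. The part of these marker differences in the results below was not tested. A level in such bulk libraries does not tell fewer cells of a type from less RNA per cell.

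In shPIWIL4, transcripts of 5 of 7 elongation factor genes were lower, and of 14 eIF3 genes 6 were lower and 4 higher. Of 12 eIF4 genes 9 were higher and 2 lower, and 5 of 7 genes grouped under start codon recognition were higher. Of 56 members, 55 passed the filter on low counts, and EIF4E1B had 0 counts in all 4 libraries, which allows up to 0.0568 to 0.0944 CPM at 3 counts per library. Calls rest on an adjusted p below 0.05 from the quasi-likelihood test of edgeR, with p-values adjusted by Benjamini-Hochberg over all 16108 genes that passed the filter. By that rule 22 members rose and 15 fell, 67.3% of the members tested, and 18 were not called. Over all genes tested, 28.7% were called higher and 29.1% lower, 57.7% in either direction. The share of members that fell, 27.3%, is thus close to that of all genes. Leaving EIF1AY aside, CPM values of the groups did not overlap for 26 higher and 19 lower members. Over all genes tested that held for 39.1% and 39.5%, or 78.6% in either direction. The median log2 fold change of the members was 0.10, against -0.0034 over all genes tested, and only 1 member that rose and 4 that fell changed by at least 2-fold.

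**Figure D1:**
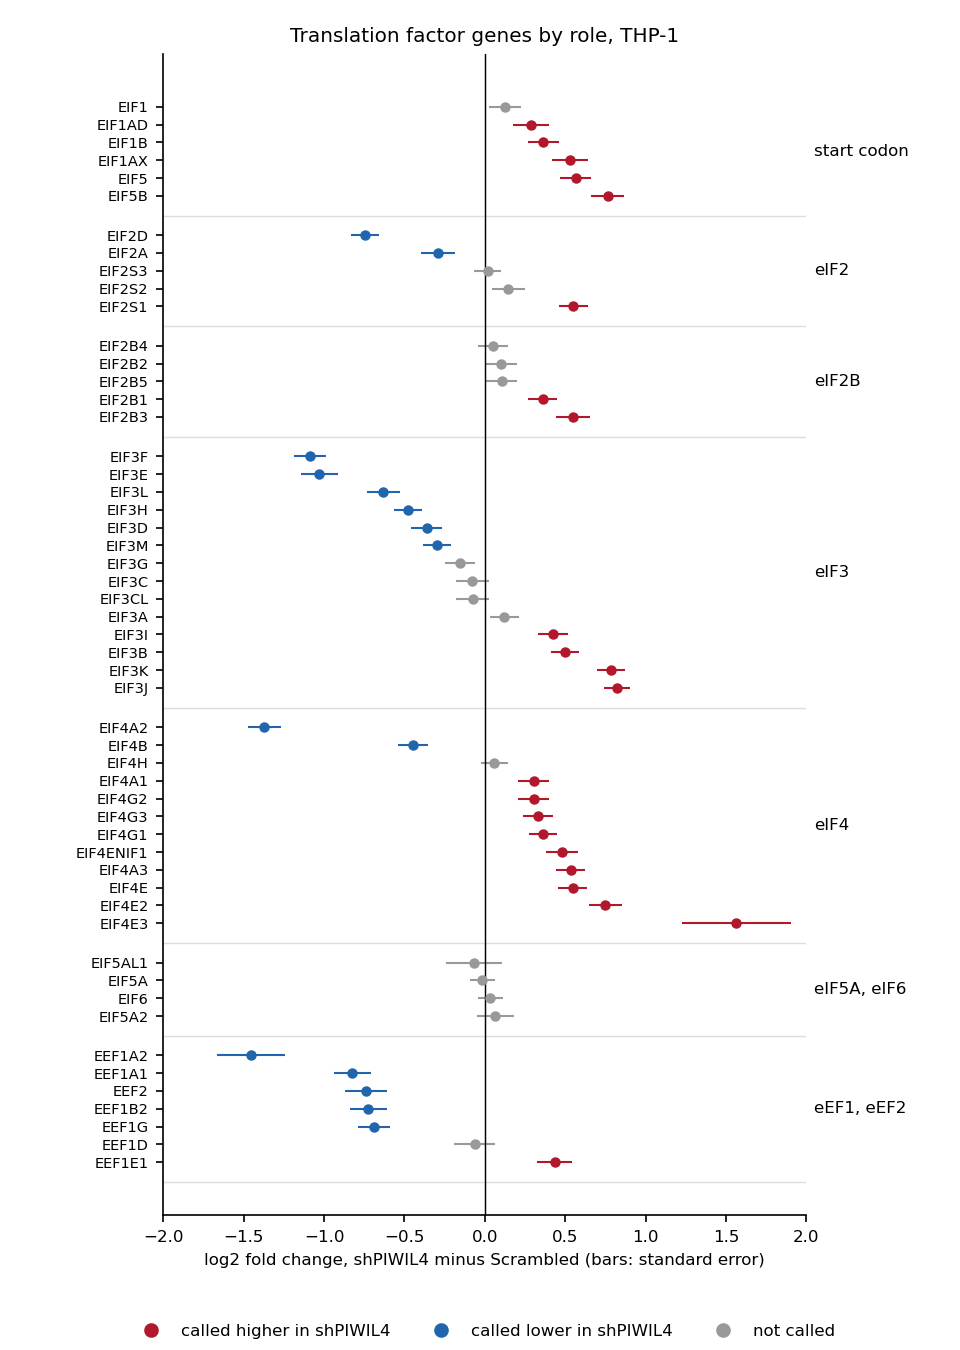
Log2 fold change (shPIWIL4 minus Scrambled, x axis) of 53 tested members (all but EIF1AY and the read-through gene EEF1E1-BLOC1S5) grouped by role, with the standard error as bars and colour by call. Of the eEF1 and eEF2 genes 5 fell and 1 rose, of the eIF4 genes 9 rose and 2 fell, and eIF3 genes lie on either side of 0.

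The elongation factors had the most uniform falls. Of 7 members of eEF1 and eEF2, 5 fell and 1 rose, with a median log2 fold change of -0.72. EEF1A1, which encodes the main tRNA-delivering GTPase, was at 19591 and 18867 CPM in Scrambled libraries 1 and 2 and at 10034 and 11708 CPM in shPIWIL4 libraries 1 and 2. Its groups did not overlap, and the fall was 0.82 on the log2 scale (SE 0.12), or 1.77-fold, with an edgeR adjusted p of 2.8e-04. Numbered pseudogenes resemble EEF1A1, so its count is uncertain to the extent that they share reads. EEF1A1 alone held 1.98% and 1.93% of all counts in the Scrambled libraries and 1.00% and 1.13% in the shPIWIL4 libraries. All 56 members together held 3.64% and 3.57% in Scrambled and 2.36% and 2.53% in shPIWIL4. The 48 EIF genes held nearly the same share throughout, 1.03% and 0.996% in Scrambled and 0.958% and 1.02% in shPIWIL4, with overlapping groups. The drop in the members' share of the reads was thus carried by the eEF genes, which held 2.61% and 2.57% in Scrambled and 1.398% and 1.504% in shPIWIL4.

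EEF2, the translocase gene, was at 2315 and 2580.2 CPM in Scrambled and at 1651 and 1285 CPM in shPIWIL4. It fell by 0.74 (SE 0.13, edgeR adjusted p 1.0e-03), and the shPIWIL4 libraries differed from each other more than the Scrambled ones. EEF1B2 and EEF1G encode subunits of the exchange complex eEF1B. EEF1B2 was at 1248 and 1094 CPM in Scrambled and 645 and 772 CPM in shPIWIL4, a fall of 0.72 (SE 0.12, edgeR adjusted p 5.6e-04). EEF1G was at 2513 and 2367 CPM against 1434 and 1589 CPM, a fall of 0.69 (SE 0.10, edgeR adjusted p 3.2e-04). These 4 abundant genes therefore fell by similar amounts, between 0.69 and 0.82. EEF1D, which encodes another subunit of the same complex, did not go with them. It was at 171 and 196 CPM in Scrambled and at 199 and 152 CPM in shPIWIL4, the lowest and the highest value both being in shPIWIL4, with a log2 fold change of -0.063 (SE 0.13) and an edgeR adjusted p of 0.70. Without shPIWIL4 library 1 it was called, at -0.26.

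EEF1A2, the isoform known from muscle and neurons, was expressed at a very low level and had the largest fall of all members. It was at 5.13 and 5.83 CPM in Scrambled and 2.51 and 1.52 CPM in shPIWIL4, a fall of 1.45 (SE 0.21, edgeR adjusted p 3.3e-04). Its share of the summed EEF1A1 and EEF1A2 TPM (the authors' value per gene length) was at most 0.0541% in any library. EEF1E1, which encodes a small protein of the multi-synthetase complex despite its name, rose from 14.9 and 13.9 CPM to 18.3 and 20.5 CPM, by 0.43 (SE 0.11, edgeR adjusted p 6.8e-03). This call was lost without Scrambled library 2, which left 0 eEF genes higher. EEF1E1-BLOC1S5, a read-through gene that overlaps it, had a log2 fold change of 0.096, and reads shared by the 2 names make both uncertain.

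**Figure D2:**
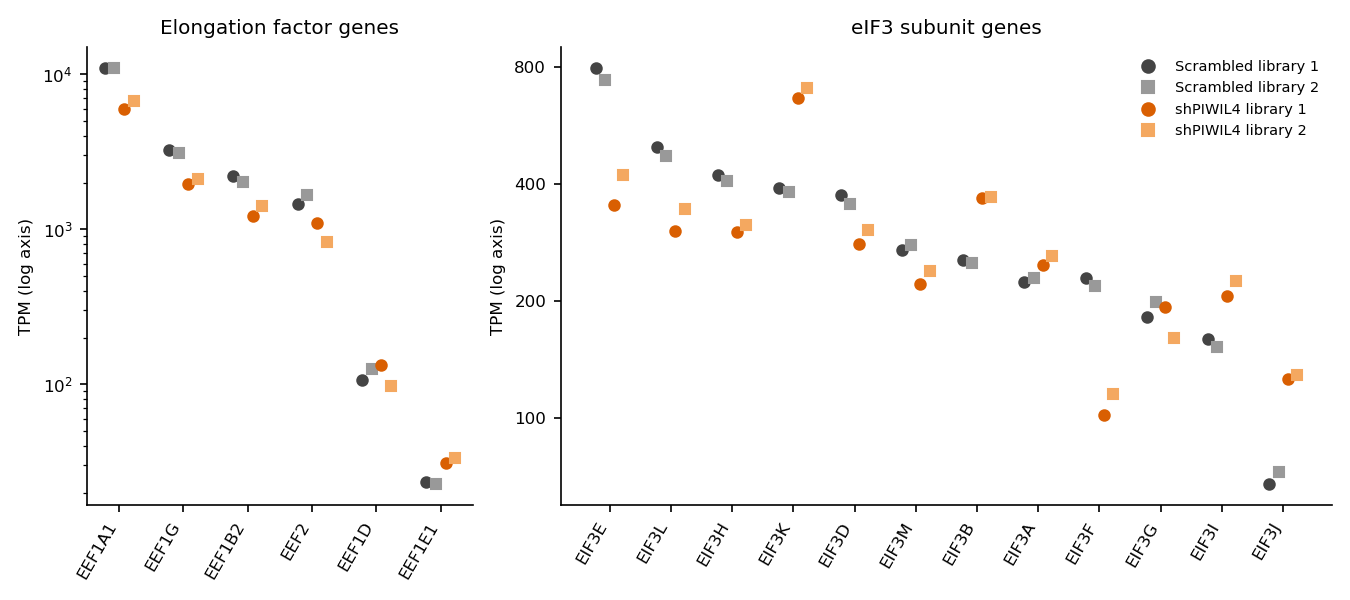
TPM in each library (log axes) for 6 elongation factor genes and 12 eIF3 subunit genes, with grey symbols for Scrambled and orange for shPIWIL4. EEF1A1, EEF1G, EEF1B2 and EEF2 are lower in shPIWIL4 libraries, and the most abundant eIF3 transcript is EIF3E in Scrambled and EIF3K in shPIWIL4.

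The genes of eIF3, the largest initiation factor, split in direction. Of its 14 genes, 6 fell, 4 rose and 4 were not called, and their median log2 fold change was -0.12. EIF3F and EIF3E, subunits of the core of the complex, had the largest falls. EIF3F was at 146 and 136 CPM in Scrambled and 61.1 and 71.7 CPM in shPIWIL4, a fall of 1.09 (SE 0.098, edgeR adjusted p 2.0e-05). EIF3E was at 608 and 549.8 CPM in Scrambled and 253 and 315 CPM in shPIWIL4, a fall of 1.03 (SE 0.12, edgeR adjusted p 7.7e-05). In both genes the highest shPIWIL4 library was far below the lowest Scrambled library. EIF3L, EIF3H, EIF3D, which can itself contact the cap, and EIF3M fell by 0.63, 0.48, 0.36 and 0.30. Without Scrambled library 1 the calls of EIF3D (at -0.28) and EIF3M (at -0.27) were lost, and without Scrambled library 2 that of EIF3M (at -0.30). With a replicate block EIF3M was not called either (edgeR adjusted p 0.063).

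EIF3J, a loosely bound subunit, was at 88.0 and 91.6 CPM in Scrambled and at 154 and 164 CPM in shPIWIL4, and rose by 0.82 (SE 0.081, edgeR adjusted p 3.4e-05). EIF3K was at 176 and 167 CPM against 281 and 309.7 CPM and rose by 0.79 (SE 0.088, edgeR adjusted p 7.0e-05). EIF3K binds EIF3L at the edge of the complex, and the transcripts of this pair moved in opposite directions. EIF3B and EIF3I, which sit together in a module near the mRNA entry channel, rose by 0.50 and 0.42. EIF3A, the main scaffold gene, was at 603 and 599 CPM in Scrambled and 626 and 682 CPM in shPIWIL4 and was not called, nor was EIF3G. The other scaffold gene, EIF3C, and its near-identical copy EIF3CL had almost the same counts in every library, so that reads cannot be assigned to either, and neither was called.

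Per gene length, the eIF3 transcripts spanned a narrower range in shPIWIL4. Over 12 subunits without EIF3C and EIF3CL, the most abundant transcript exceeded the least abundant by 11.7 and 10.2 times in the Scrambled libraries and by 6.502 and 6.09 times in the shPIWIL4 libraries. In Scrambled the ends were EIF3E, at 795 and 741 TPM, and EIF3J, at 67.8 and 72.7 TPM. In shPIWIL4 they were EIF3K, at 664 and 705 TPM, and EIF3F, at 102 and 116 TPM. The median subunit was at 263 and 265 TPM in Scrambled and 264 and 283 TPM in shPIWIL4.

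Among the eIF4 genes, 9 of 12 tested rose, 2 fell and 1 was not called. Without Scrambled library 2 the number that rose was 5, and it was also 5 under a stricter filter on low counts. The clearest change was in the helicase subunit eIF4A, which unwinds mRNA leaders and is encoded by the close paralogs EIF4A1 and EIF4A2. EIF4A2 was at 588 and 557 CPM in Scrambled and at 204 and 239 CPM in shPIWIL4. It fell by 1.37 on the log2 scale (SE 0.10), or 2.59-fold, with an edgeR adjusted p of 7.0e-06. EIF4A1 was at 549.7 and 511 CPM in Scrambled and 613 and 696 CPM in shPIWIL4. It rose by 0.30 (SE 0.098, edgeR adjusted p 0.024), without overlap of the groups, but this call was lost in 4 of 12 alternatives, among them upper-quartile scaling (adjusted p 0.14) and the fit without Scrambled library 2 (adjusted p 0.20).

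In TPM, EIF4A2 made up 51.5% and 52.0% of the pair in Scrambled and 24.8% and 25.5% in shPIWIL4. The libraries of each group thus lay within 1 percentage point of each other while the groups did not overlap. An exact permutation test of this share has a two-sided p of 0.33, the smallest that 2 libraries against 2 can give. The summed level of the pair was 1191 and 1151 TPM in Scrambled and 912 and 1009 TPM in shPIWIL4. EIF4A3, the paralog that works in the exon junction complex, rose by 0.54 (SE 0.091), from 99.0 and 89.2 CPM to 129.8 and 143 CPM.

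**Figure D3:**
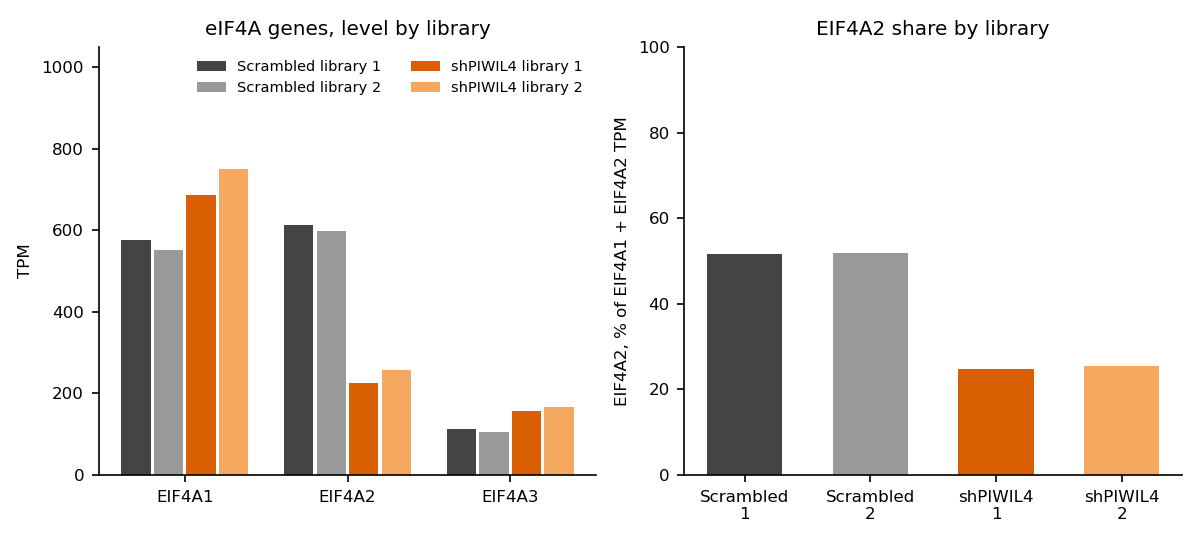
Left, TPM of EIF4A1, EIF4A2 and EIF4A3 in each library. Right, EIF4A2 as a percentage of the summed EIF4A1 and EIF4A2 TPM, which is 51.5 and 52.0 in Scrambled libraries and 24.8 and 25.5 in shPIWIL4 libraries.

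EIF4B, whose product stimulates eIF4A, was the other eIF4 gene that fell. It was at 969.5 and 954 CPM in Scrambled and 667 and 742 CPM in shPIWIL4, a fall of 0.45 (SE 0.094, edgeR adjusted p 2.8e-03). EIF4H, which has a similar task, was at 275 and 263 CPM in Scrambled and 274 and 287 CPM in shPIWIL4 and was not called. The cap-binding genes rose. EIF4E was at 35.3 and 36.4 CPM in Scrambled and at 49.95 and 54.7 CPM in shPIWIL4, a rise of 0.55 (SE 0.089, edgeR adjusted p 6.8e-04). EIF4E2, whose product binds the cap without recruiting eIF4G, was at 69.9 and 60.6 CPM against 102 and 117 CPM and rose by 0.75 (SE 0.10, edgeR adjusted p 2.2e-04). EIF4ENIF1, which encodes an eIF4E-binding transport protein, rose by 0.48.

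EIF4E3 had the largest rise among the members, 1.56 (SE 0.34, edgeR adjusted p 3.3e-03), but from only 6 and 10 counts in Scrambled and 27 and 31 counts in shPIWIL4. DESeq2 gave it an adjusted p of 0.062. The share of EIF4E2 in the summed TPM of EIF4E, EIF4E2 and EIF4E3 was 71.9% and 68.2% in Scrambled and 72.4% and 73.3% in shPIWIL4, without overlap of the groups. The scaffold genes rose by small and similar amounts. EIF4G1 was at 524 and 531 CPM in Scrambled and 691 and 663 CPM in shPIWIL4, a rise of 0.36 (SE 0.086) whose call was lost without Scrambled library 2 (adjusted p 0.052). EIF4G3 rose by 0.33 (SE 0.093), from 248 and 236 CPM to 285 and 325 CPM, and its call was lost in 4 of 12 alternatives, among them the fit without Scrambled library 2 (adjusted p 0.10). EIF4G2, whose product lacks the eIF4E-binding part, rose by 0.30 (SE 0.096), from 814 and 782 CPM to 927 and 1044 CPM, and this call was lost in 5 of 12 alternatives. Within the 3 scaffold genes EIF4G1 held 27.4% and 28.5% of TPM in Scrambled and 30.4% and 27.1% in shPIWIL4, with overlapping groups.

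The genes grouped under start codon recognition, which include EIF1AD by its name, rose or were not called. Of 7 such genes, 5 rose and 0 fell, and their median log2 fold change was 0.36. With upper-quartile scaling, or without Scrambled library 2, 3 rose. EIF5B, the gene for the subunit-joining GTPase, was at 182 and 171 CPM in Scrambled and 272 and 327 CPM in shPIWIL4, a rise of 0.77 (SE 0.10, edgeR adjusted p 2.1e-04). EIF5, which triggers GTP hydrolysis by eIF2, rose by 0.56 (SE 0.099) and EIF1AX by 0.53 (SE 0.11). EIF1, the start codon fidelity factor, was at 323 and 299 CPM in Scrambled and 313 and 366 CPM in shPIWIL4 and was not called. Its paralog EIF1B rose by 0.36 (SE 0.097), from 24.0 and 24.7 CPM to 29.7 and 33.0 CPM, and its call was lost with upper-quartile scaling (adjusted p 0.053) and without Scrambled library 1 (adjusted p 0.060) or 2 (adjusted p 0.051). EIF1B made up 8.88% and 9.77% of the summed EIF1 and EIF1B TPM in Scrambled and 11.04% and 10.6% in shPIWIL4. EIF1AD had a log2 fold change of 0.29 with an edgeR adjusted p of 0.048, and 7 of 12 alternatives did not call it.

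Genes for the delivery of the initiator tRNA moved unequally. Of the 3 eIF2 subunit genes, EIF2S1, which encodes the alpha subunit that stress kinases phosphorylate, was at 80.5 and 76.0 CPM in Scrambled and at 107 and 122 CPM in shPIWIL4. It rose by 0.55 (SE 0.091, edgeR adjusted p 6.9e-04). EIF2S2 was at 231 and 216 CPM in Scrambled and 225 and 269 CPM in shPIWIL4, and EIF2S3 was between 326 and 342 CPM in all 4 libraries, and neither was called. EIF2D and EIF2A encode proteins that bring tRNA to the ribosome outside the eIF2 route. EIF2D was at 92.5 and 87.1 CPM against 51.7 and 55.4 CPM and fell by 0.75 (SE 0.084, edgeR adjusted p 7.5e-05). EIF2A fell by 0.29 (SE 0.10, edgeR adjusted p 0.037), and this call was lost in 3 of 12 alternatives. They were the fits without Scrambled library 1 (at -0.21), without shPIWIL4 library 1 (at -0.15) and with a replicate block (edgeR adjusted p 0.063).

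In eIF2B, the exchange factor that recharges eIF2 with GTP, 2 of 5 genes rose and 0 fell. EIF2B3 was at 16.7 and 14.98 CPM in Scrambled and at 21.9 and 24.3 CPM in shPIWIL4, a rise of 0.55 (SE 0.11, edgeR adjusted p 1.9e-03). EIF2B1, the regulatory alpha subunit, rose by 0.36 (SE 0.089). EIF2B2, EIF2B4 and EIF2B5, the last of which encodes the catalytic subunit, had log2 fold changes of 0.10, 0.052 and 0.11 and were not called.

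The 4 genes of eIF5A and eIF6 were not called, and their log2 fold changes lay between -0.067 and 0.066. EIF5A, which carries the modified amino acid hypusine and relieves stalled ribosomes, was at 164 and 162 CPM in Scrambled and 166 and 157 CPM in shPIWIL4. EIF6, which keeps the large subunit apart from the small, was between 100.1 and 104 CPM in all 4 libraries. EIF5A2 was at 14.3 and 16.0 CPM in Scrambled and 17.1 and 14.7 CPM in shPIWIL4, and its share of the summed EIF5A and EIF5A2 TPM ranged from 2.78% to 3.27%. EIF5AL1, a near copy of EIF5A, was below 2 CPM throughout, and its reads are uncertain.

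Level and direction went together among the members. Ordered by their mean TPM in Scrambled, the 10 most abundant members held 8 that fell, 1 that rose (EIF4A1) and 1 that was not called (EIF1), at means from 469 to 10954 TPM. The next 10 held 4 that fell and 3 that rose, and the third 10 held 1 that fell and 4 that rose. In ranks 31 to 40, at 27.8 to 77.3 TPM, 8 rose and 1 fell. In ranks 41 to 55, at up to 25.7 TPM, 6 rose, 7 were not called and 1 was not tested. The 1 that fell there was EEF1A2, at rank 50. Genes outside the members were not ordered in this way, so whether the trend is particular to the members was not tested. The order uses the Scrambled libraries that also enter the fold changes, so it is a description. EEF1A1 stood first in Scrambled at 10954 ± 59 TPM and in shPIWIL4 at 6381 ± 533 TPM (SD, n = 2 each), followed in both groups by EEF1G, EEF1B2 and EEF2. The spreads of these 4 genes did not overlap within either group, with EEF1B2 at 2109 ± 151 and EEF2 at 1552 ± 152 TPM the closest neighbours in Scrambled.

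**Figure D4:**
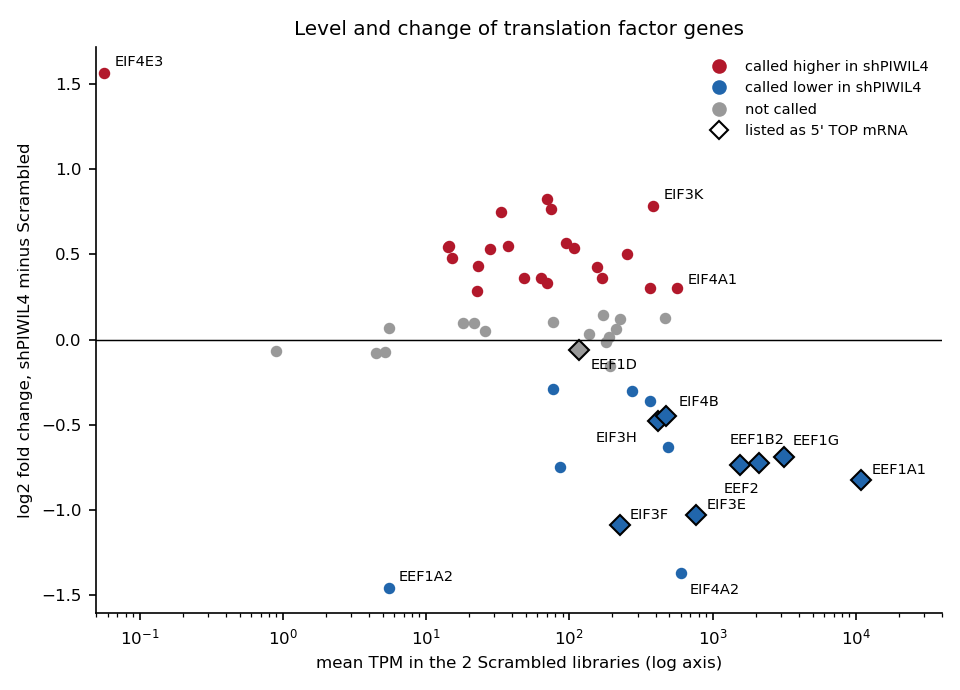
Mean TPM in the 2 Scrambled libraries (log axis) against log2 fold change for the tested members except EIF1AY, coloured by call, with diamonds for members listed as 5′ TOP mRNAs. Of the 10 most abundant members 8 lie below 0 as called falls, and EIF4A1 is the called rise among them.

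There were 9 members listed as known 5′ TOP mRNAs, namely EEF1A1, EEF1B2, EEF1D, EEF1G, EEF2, EIF3E, EIF3F, EIF3H and EIF4B. Of these 9, 8 fell and 0 rose, with a median log2 fold change of -0.72. Among the 46 other members tested, 7 fell and 22 rose, with a median of 0.16. The list was drawn up with the fall of ribosomal protein transcripts in these libraries already known, and it is not independent evidence of a direction.

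The pyrimidine run shown above was searched in the start sequences of the members, on the strand of the gene only. RefSeq sequences were matched for 46 members, and not for EEF1A2, EEF1D, EIF2S2, EIF3A, EIF3CL, EIF3E, EIF3G, EIF3H and EIF3L, with EIF1AY left out. A gene with several annotated starts counted once if any of them held the run. Of the 11 members that fell and had a sequence, 10 held the run (90.9%), and of the 22 that rose, 6 did (27.3%). Among 12 members tested and not called it was 5 (41.7%). In EIF1, EIF3C and EIF5A2, which were not called, and in EIF5, which rose, the run lay wholly before the annotated start. In EIF1, EIF5 and EIF5A2 a C or T lay directly before the run. The same held for members that fell, among them EEF1A1, EEF2, EIF4B and EIF4A2. Over all 27305 genes in the table the share was 25.2%, over all genes tested 29.2%, and over all genes called lower and higher 32.3% and 26.2%. The members that fell with a run included EIF2A, EIF2D, EIF3D, EIF3M and EIF4A2, which are not on the TOP list. The others, EEF1A1, EEF1B2, EEF2, EIF3F and EIF4B, are on that list. Such a run defines the TOP class, so their matches are not evidence independent of the list. EEF1B2 held a run of 16 pyrimidines at its downstream start and none at its upstream start. A match describes the annotated start and not the start used in these cells.

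The regulators and partners of the factors were taken from 7 lists. Over all genes tested, 28.7% were called higher and 29.1% lower, 57.7% in either direction. The share called in either direction was below that in the termination list and in the hypusine and diphthamide list. It was above that in the other lists. Whether any list differed from all genes was not tested, and each list is small. Of 6 genes for kinases and phosphatase subunits of eIF2, 3 rose and 1 fell. EIF2AK2, which encodes the double-stranded RNA sensor PKR, rose from 21.3 and 21.0 CPM to 32.2 and 36.1 CPM (0.69, SE 0.099, edgeR adjusted p 3.0e-04). PPP1R15A, whose product returns eIF2 to its active form, fell from 63.2 and 63.9 CPM to 44.3 and 43.9 CPM (-0.53, SE 0.081, edgeR adjusted p 4.6e-04). EIF2AK1 and EIF2AK4, named after their values were seen, had log2 fold changes of 0.30 each. With upper-quartile scaling, or without Scrambled library 2, only 1 of these kinase genes was called higher.

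Among 6 genes for eIF4E-binding proteins and for eIF4E and eEF2 kinases, 3 fell and 2 rose. The eIF4E kinase genes MKNK2 and MKNK1 fell by 0.52 and 0.33. EEF2K, which inhibits eEF2, had a log2 fold change of -0.27 and the eIF4E inhibitors EIF4EBP1 and EIF4EBP2 of 0.34 and 0.35, these 3 being named after their values were seen. With upper-quartile scaling 0 genes of this list were higher, and leaving out either Scrambled library gave 1 higher and 1 lower.

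Of 8 genes for poly(A)-binding proteins and their partners, 4 rose and 1 fell. PAIP2, an inhibitor of poly(A)-binding protein, fell from 109 and 102 CPM to 38.5 and 43.0 CPM (-1.37, SE 0.090, edgeR adjusted p 3.6e-06). PAIP1, which stimulates translation through the same protein, rose from 63.2 and 61.9 CPM to 93.5 and 107 CPM (0.68, SE 0.090, edgeR adjusted p 1.9e-04). PABPC1, itself known as a 5′ TOP mRNA and named after its values were seen, was at 1204 and 1157 CPM in Scrambled and 1384 and 1534 CPM in shPIWIL4, with a log2 fold change of 0.31 (edgeR adjusted p 0.021). It thus moved the other way from the 8 TOP members that fell. The other genes that rose, PABPC4 (0.56) and LARP4 (0.45), were likewise named after their values were seen.

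Of 8 termination, recycling and rescue genes, 3 rose, 1 fell and 4 were not called. ETF1, the release factor that reads stop codons, rose from 162 and 156 CPM to 249 and 288 CPM (0.76, SE 0.094, edgeR adjusted p 1.2e-04), and the ribosome recycling gene ABCE1 rose by 0.59. GSPT1 and HBS1L, named after their values were seen, had log2 fold changes of 0.56 and -0.40. Among 9 genes that make hypusine on eIF5A and diphthamide on eEF2, 4 rose and 1 fell. DPH6 rose from 4.16 and 4.94 CPM to 9.91 and 10.3 CPM (1.14, SE 0.13, edgeR adjusted p 7.7e-05) and DPH3 by 0.62, both of the diphthamide pathway. The hypusine enzyme gene DHPS had a log2 fold change of -0.41, and the diphthamide genes DPH2 and DNAJC24 of 0.58 and 0.41, all 3 named after their values were seen.

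In the list of mTORC1 and its regulators, 5 of 10 genes rose and 1 fell. MTOR, the kinase itself, rose from 95.6 and 91.9 CPM to 172 and 187 CPM (0.94, SE 0.084, edgeR adjusted p 1.9e-05), and its activator RHEB rose by 0.65. Named after their values were seen, the S6 kinase genes RPS6KB1 and RPS6KB2 had log2 fold changes of 0.42 and 0.32, and the inhibitor genes TSC2 and AKT1S1 of 0.37 and -0.42. With upper-quartile scaling 3 genes of this list were higher and 2 lower. Mitochondrial translation factors rose in 8 of 10 genes and fell in 0, with a median of 0.52. GFM1, an elongation factor of mitochondria, rose from a mean of 60.7 ± 1.02 CPM to 106 ± 8.6 CPM (0.81, SE 0.088, edgeR adjusted p 6.0e-05). TUFM, the mitochondrial counterpart of eEF1A, rose from 158 and 159 CPM to 274 and 256 CPM (0.74, SE 0.082, edgeR adjusted p 6.6e-05), while EEF1A1 fell.

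**Figure D5:**
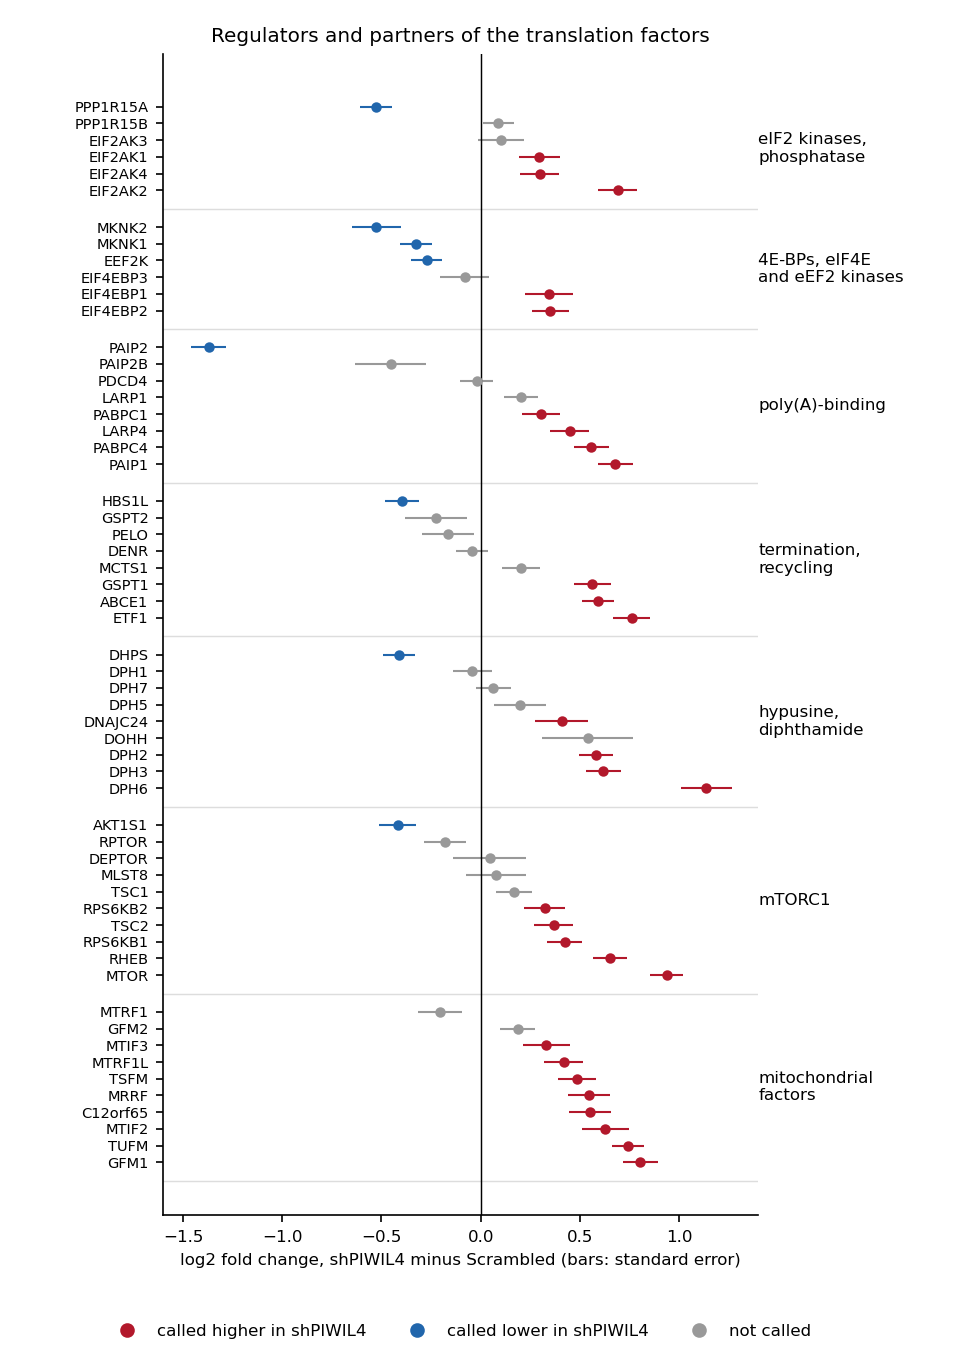
Log2 fold change (shPIWIL4 minus Scrambled, x axis) of 57 regulators and partners of the translation factors in 7 lists, with the standard error as bars and colour by call. PAIP2 has the largest fall, at -1.37, and DPH6 the largest rise, at 1.14, and 8 of 10 mitochondrial factors are called higher.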

How the data were processed

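Per the submitters' processing notes, reads were processed with STAR, featureCounts and DESeq2 on genome build hg19. The sources used here give no version, annotation or strand setting, so reads of overlapping genes cannot be told apart. The authors deposited raw counts per gene for each library, and TPM values that they derived from them. A deposited normalized matrix was not used. Titles define the groups, since the word scrambled also occurs in the treatment label of shPIWIL4 libraries.

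The count test was that of edgeR 4.0.16 (R 4.3.3), with filterByExpr (minimum count 10, minimum total 15), TMM scaling and the robust quasi-likelihood F test, with a term for group alone. P-values were adjusted by Benjamini-Hochberg over every gene tested. The SE is the log2 fold change divided by the square root of F. TMM centres the comparison on all genes, so a change in total RNA per cell would not be seen. TPM served to compare levels between genes and to describe shares, sums and ranges in each library, and no call rests on it. Alternatives were other scalings, filters, DESeq2 1.42.0, a replicate block and each library left out. Replicates differed by more than sampling noise, with a chi-square per gene of 7.89 in Scrambled and 27.9 in shPIWIL4 (pair total 20 or more).

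The members, gene lists, sequence search and figures were chosen with earlier results of these data known. Members described in full were the called ones with the largest rise and fall in each role and the paralogs compared, and up to 2 called genes with the smallest p in each related list. The value in each library is given for further members where a comparison needs it.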

Additional observations from a re-analysis of the deposited data

How the results depend on the processing

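Of the 22 members that rose, 14 were called in every alternative in which they were tested, and of the 15 that fell, 12 were, and all 37 kept their sign. Upper-quartile factors shifted all genes to a median log2 fold change of -0.12 and the members to -0.022, with 17 members higher and 16 lower, and 3446 genes higher and 5717 lower over all genes. The stricter filter left fewer genes, with 2874 higher and 2856 lower over all genes and a members' median of 0.0012. Leaving out each library in turn gave 15 to 27 members higher, 12 to 16 lower and a members' median of 0.036 to 0.19, and over all genes 3560 to 5164 higher and 3525 to 5011 lower. DESeq2 called 20 members higher and 15 lower.

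The replicate block gave 18 members higher and 13 lower, and 3921 and 4197 over all genes. Same-numbered libraries deviated from their group means in opposite directions (correlation -0.31), and the block with crossed numbers, added after seeing the data, gave 23 and 16 members and 5728 and 5641 genes. The titles number the replicates alike across the groups but do not say that a number marks a shared experiment, so the libraries were not treated as pairs.

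In every fit that turned a sign, the member was called neither there nor in the fit with all libraries and TMM scaling. With upper-quartile factors the log2 fold change was -0.026 for EEF1E1-BLOC1S5, -0.022 for EIF2B2, -0.069 for EIF2B4, -0.017 for EIF2B5, -0.10 for EIF2S3, -0.00060 for EIF3A, -0.062 for EIF4H, -0.055 for EIF5A2 and -0.088 for EIF6. With the stricter filter it was -0.0059 for EEF1E1-BLOC1S5, -0.0019 for EIF2B2, -0.049 for EIF2B4, -0.084 for EIF2S3, -0.042 for EIF4H, -0.036 for EIF5A2 and -0.067 for EIF6. With library totals it was -0.029 for EIF2S3 and -0.012 for EIF6, and without a filter 0.024 for EIF5A. Leaving out libraries turned EEF1D (-0.26 to 0.12), EEF1E1-BLOC1S5 (-0.030 to 0.23), EIF2S3 (-0.0093 to 0.059), EIF3CL (-0.12 to 0.00090), EIF5A (-0.045 to 0.030) and EIF5A2 (-0.040 to 0.17). Without shPIWIL4 library 1, EEF1D (-0.26), EEF1E1-BLOC1S5 (0.23), EIF1 (0.24), EIF2B5 (0.21), EIF2S2 (0.28) and EIF3G (-0.26) were called. Each kept the sign it had with all libraries. EIF3G was also called with upper-quartile factors (-0.28), and both EIF3G (-0.16) and EIF2S2 (0.14) with the crossed replicate block. The cause of these changes was not tested.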
